A study of Homo sapiens with 6 samples.

Results

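Fatty acid transport and binding proteins were followed at the RNA level through 10 genes, chosen by symbol from the 58735 genes of the count table. They were 5 fatty acid transport protein genes (SLC27A1 to SLC27A5), 4 fatty acid binding protein genes (FABP1, FABP2, FABP5 and FABP6) and the scavenger receptor gene CD36. RNA was sequenced from T84 cells, a human colorectal cancer line in long use, grown in DMEM/F12 with serum. The 3 shACSL4 libraries carry a short hairpin RNA against ACSL4, which the labels call a knockdown of Acsl4, and the 3 shControl libraries carry a control hairpin and are labelled WT. The design text calls the cells knockout, whereas the titles give hairpins, and the titles are followed here; neither the number of hairpins nor their sequences are given. Nothing states that replicate libraries were grown as separate cultures, and p-values therefore reflect the spread among these 6 libraries, which may be technical.

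Long-chain fatty acids enter epithelial cells by diffusion and with the help of membrane proteins, among them CD36 and the SLC27A family, many of which also join the fatty acid to coenzyme A. Inside the cell, small cytoplasmic FABP proteins hold the poorly soluble fatty acid or bile acid in a barrel-shaped pocket and carry it between membranes. In the intestine FABP1 and FABP2 are the abundant forms of absorptive cells and FABP6 is the bile acid binding form of the ileum. ACSL4, the targeted gene, activates long-chain polyunsaturated fatty acids such as arachidonic acid.

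The libraries held 14740383 to 17620630 counts, so that 3 counts corresponded to 0.171 to 0.202 CPM, counting error only. CPM is the count scaled to the TMM-adjusted library size. ACSL4 had 10.3, 9.12 and 11.1 CPM in shACSL4 replicates 1, 2 and 3, against 75.5, 72.2 and 72.0 CPM in shControl replicates 1, 2 and 3. Its log2 fold change was -2.85 (SE 0.10). All 12 colonic epithelial markers were measured, with summed levels of 8846 to 10120 CPM in shACSL4 and 7848 to 9013 CPM in shControl. Of them 6 were called higher and 2 lower, beside 24% higher and 23.1% lower over all genes tested. Tested against a fold of 1.2, 3 were higher and 0 lower. The macrophage, endothelial, adipocyte, hepatocyte and fibroblast markers summed to at most 2.51 CPM per list in shACSL4 libraries and 4.37 CPM in shControl libraries. Within these lists PLIN1 (-2.32), CD14 (-1.10) and COL1A1 (-1.49) were called lower by edgeR. The 4 adipocyte markers summed to 0.342 to 1.03 CPM in shACSL4 and 2.29 to 3.81 CPM in shControl, and ADIPOQ, LEP and FABP4 had at most 2 counts in any library. The part of these markers in the falls of FABP1, SLC27A1 and SLC27A3 was not tested. In such bulk samples, fewer cells expressing a gene and less RNA of it per cell cannot be told apart.

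Of the 10 genes, 9 passed the filter on low counts and 4 of them changed (adjusted p under 0.05, edgeR). FABP1 fell to 12.3%, SLC27A1 to 32% and SLC27A3 to 75.3% of the shControl level, while the scarce FABP2 rose 2.52-fold. SLC27A2, SLC27A4, SLC27A5, FABP5 and FABP6 did not pass the test, and CD36 was below the filter. Over all 15694 genes tested 47.2% were called, so 4 of 9 was close to the background share. Of all genes tested 23.1% were called lower and 24% higher. The groups did not overlap for the 4 called genes, 3 lower and 1 higher in shACSL4. Of all genes tested, 26.8% had groups that did not overlap and were lower in shACSL4. Another 28.3% of all genes tested were higher without overlap, 55.1% in either direction. The median log2 fold change was -0.17 over the 9 genes and 0.01 over all genes tested.

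**Figure D1:**
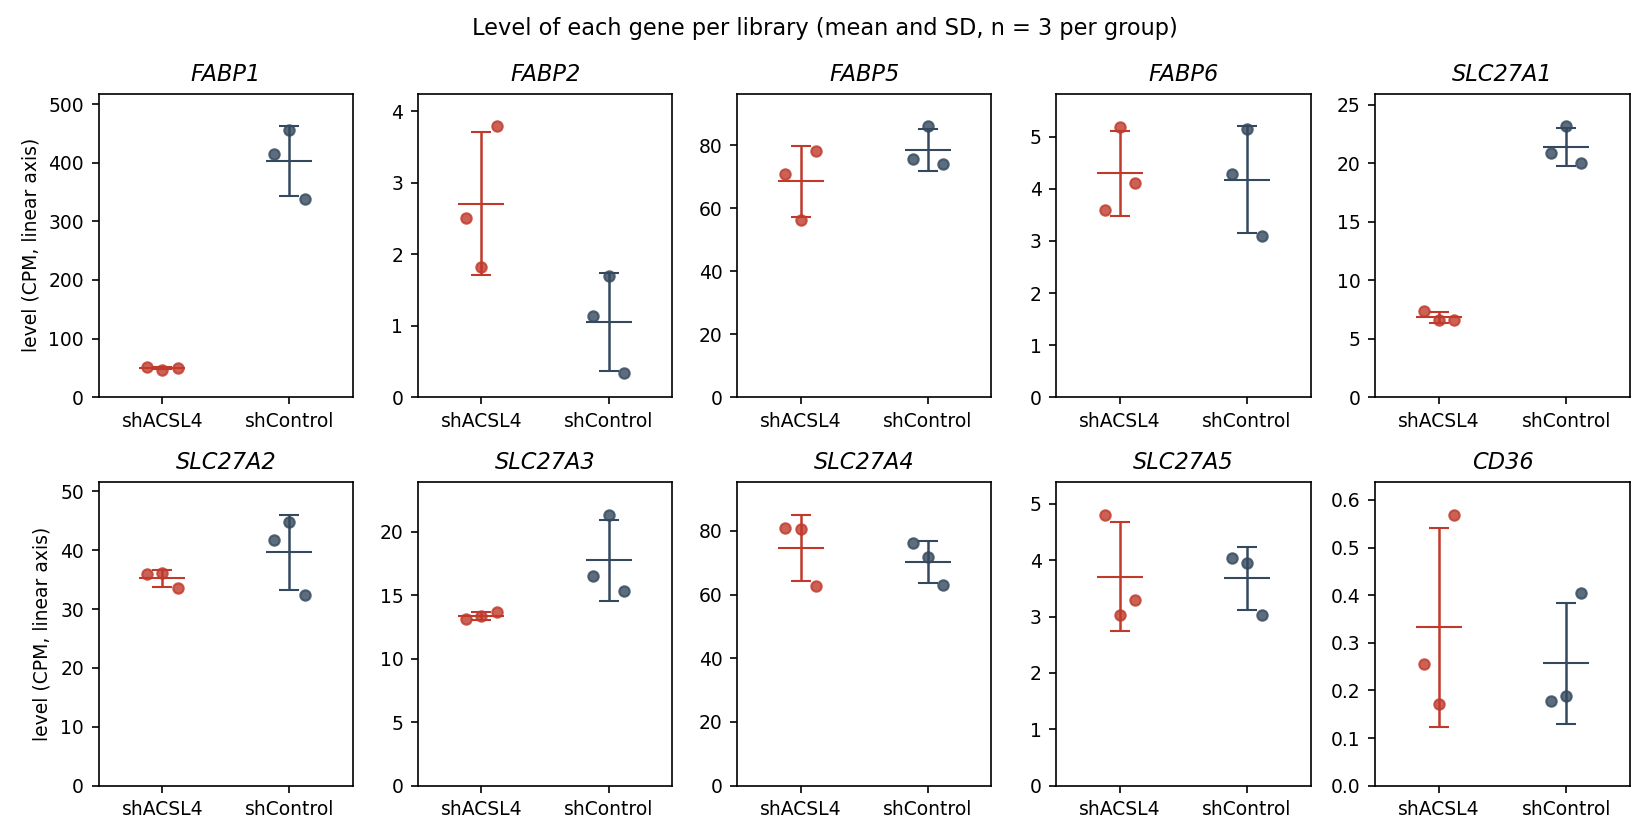
Level of each of the 10 genes in CPM (linear axis from 0, a scale of its own per panel), with 1 point per library, shACSL4 on the left and shControl on the right of each panel, and the mean and SD over 3 libraries. FABP1 lies at 47.2 to 51.9 CPM in shACSL4 and 339 to 456 CPM in shControl, while FABP6, SLC27A4 and SLC27A5 overlap between the groups.

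The promoter windows of FABP1, FABP2 and SLC27A1, which had the largest fold changes of the 9 genes tested, are shown as a description. Each runs 250 bases before to 50 bases after a start site of the gene, from RefSeq on GRCh38.p14, and 9 of the 10 genes had such an entry. Capitals mark matches, on either strand, to 4 motifs. The first was the direct repeat AGGTCANAGGTCA (DR1, with up to 2 mismatches), the kind of element bound by PPAR with RXR and by HNF4. The second was GTTAATNATTAAC (with up to 3 mismatches), the palindrome bound by HNF1. The third was the hypoxia element core ACGTG and the fourth the TATA box TATAAA, both without mismatches. The HNF1 palindrome is its own reverse complement, so each match reads on both strands. FABP1 is on the minus strand at chr2:88128013-88128312, FABP2 on the minus strand at chr4:119322089-119322388 and SLC27A1 on the plus strand at chr19:17470274-17470573.
FABP1: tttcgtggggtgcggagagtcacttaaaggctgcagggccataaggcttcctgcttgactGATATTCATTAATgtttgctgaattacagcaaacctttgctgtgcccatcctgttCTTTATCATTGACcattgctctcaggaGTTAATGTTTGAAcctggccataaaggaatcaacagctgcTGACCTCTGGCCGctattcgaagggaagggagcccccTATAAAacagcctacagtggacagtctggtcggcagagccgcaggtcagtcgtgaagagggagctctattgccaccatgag
FABP2: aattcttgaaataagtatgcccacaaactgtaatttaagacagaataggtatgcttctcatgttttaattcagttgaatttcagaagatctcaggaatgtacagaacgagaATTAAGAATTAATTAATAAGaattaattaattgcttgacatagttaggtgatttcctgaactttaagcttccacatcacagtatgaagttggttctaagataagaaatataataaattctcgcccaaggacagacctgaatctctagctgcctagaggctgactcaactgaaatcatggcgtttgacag
SLC27A1: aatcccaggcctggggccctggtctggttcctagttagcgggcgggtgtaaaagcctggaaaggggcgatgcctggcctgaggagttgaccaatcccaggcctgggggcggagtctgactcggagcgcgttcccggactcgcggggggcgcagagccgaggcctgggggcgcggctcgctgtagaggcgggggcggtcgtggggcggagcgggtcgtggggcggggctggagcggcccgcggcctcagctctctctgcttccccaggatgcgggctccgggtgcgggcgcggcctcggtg

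The FABP1 window held a DR1 match, TGACCTCTGGCCG, at -68 to -56 from the start site and on the opposite strand, and a TATA box at -31 to -26. It also held 3 matches to the HNF1 palindrome, at -190 to -178, -135 to -123 and -108 to -96. The FABP2 window held 2 overlapping matches to the HNF1 palindrome, at -139 to -127 and -132 to -120, and no match to the other 3 motifs. The SLC27A1 window held none of the 4. It lies inside the annotated gene, which begins at 17468769, and the bases before that position were not searched. A DR1 match at the same tolerance also lay in the window of SLC27A2, which was not called, at -145 to -133, and in 1 of the windows of CD36, at -147 to -135. Of 34796 promoter windows of the same length, 2.97% held the DR1 motif at this tolerance, 7.6% the HNF1 palindrome, 21.4% the hypoxia core and 11.6% the TATA box. GC content was 50% in the FABP1 window, 34% in the FABP2 window and 73.3% in the SLC27A1 window. A match is a description of the letters and not a bound site, and a link between matches and fold changes was not tested.

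FABP1 encodes the liver-type fatty acid binding protein, which takes up long-chain fatty acids and other hydrophobic ligands in hepatocytes and enterocytes. The gene lies on chromosome 2 at 88122982 to 88128116 (ENSG00000163586, minus strand, GRCh38), and no other annotated gene overlaps it. Its level was 51.9, 47.2 and 49.8 CPM in shACSL4 replicates 1, 2 and 3, against 415, 456 and 339 CPM in shControl replicates 1, 2 and 3. Every shACSL4 library was far below the lowest shControl library. The group levels were 49.7 ± 2.38 CPM in shACSL4 and 403 ± 59.6 CPM in shControl (SD, n = 3 each). The log2 fold change was -3.02 (SE 0.11, 95% interval -3.26 to -2.79), which leaves 12.3% of the shControl level, with an adjusted p of 3.7e-12 by edgeR. Of the 15694 genes tested, 53 had a fold change at or below that of FABP1, itself included. Of these, 22 were called and averaged 50 counts or more. The nearest tested genes on both sides, KRCC1 (0.12) and THNSL2 (-0.24), were not called.

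FABP2 encodes the intestinal-type binding protein of absorptive cells, and lies on chromosome 4 at 119317250 to 119322390. It was scarce, with 39, 32 and 60 counts in shACSL4 replicates 1, 2 and 3, against 19, 27 and 5 counts in shControl replicates 1, 2 and 3. As CPM these were 2.50, 1.82 and 3.80 in shACSL4 and 1.13, 1.69 and 0.336 in shControl. The groups did not overlap, although shACSL4 replicate 2 and shControl replicate 2 lay close to each other. The log2 fold change was 1.34 (SE 0.43, 95% interval 0.44 to 2.23), with an adjusted p of 0.0161 by edgeR. Without shControl replicate 3 it was 0.92 and without shACSL4 replicate 3 it was 1.02, and in both cases the call was lost (adjusted p = 0.0666 and 0.103). In the other shACSL4 and shControl libraries left out in turn it stayed called, at up to 1.83 without shControl replicate 2. On the log2(FPKM + 1) scale, which understates changes of scarce genes, it was 0.54 and called. Of the adjacent tested genes, the pseudogene GTF2IP12 was called higher (1.47) and C4orf3 lower (-0.87).

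FABP5, the epidermal-type protein expressed in many epithelia and tumours, is on chromosome 8 and no sequence is shown for it. It stood at 70.9, 56.4 and 78.2 CPM in shACSL4 replicates 1, 2 and 3, against 75.7, 86.1 and 73.9 CPM in shControl replicates 1, 2 and 3. The ranges overlapped through shACSL4 replicate 3 alone. The log2 fold change was -0.20 (95% interval -0.43 to 0.03), and the adjusted p was 0.148 by edgeR. Without shACSL4 replicate 3 it was -0.30 and was called (adjusted p = 0.0381), while it was -0.07 without shACSL4 replicate 2 (adjusted p = 0.628), -0.04 against the running median of its neighbours and -0.08 when scaled by library size alone. The genome also holds FABP5 pseudogenes, 13 of them in the table, and the counting could split reads between them and FABP5, so the FABP5 level is uncertain. FABP5P7 took most of the pseudogene counts, with 163, 160 and 170 in shACSL4 replicates 1, 2 and 3, against 233, 229 and 177 in shControl replicates 1, 2 and 3. FABP5P7 was called lower (-0.41, SE 0.14, adjusted p = 0.0221 by edgeR).

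FABP6 encodes gastrotropin, the ileal bile acid binding protein, on chromosome 5 at 160187367 to 160238735. It had 3.59, 5.19 and 4.11 CPM in shACSL4 replicates 1, 2 and 3, against 4.28, 5.15 and 3.09 CPM in shControl replicates 1, 2 and 3. The groups overlapped over nearly their whole ranges, and the log2 fold change was 0.04 (95% interval -0.45 to 0.53, adjusted p = 0.899 by edgeR). Of the FABP genes outside the 10, FABP3, the heart-type form, had 13 to 19 counts in shACSL4 and 7 to 27 in shControl (-0.10, not called). FABP4, FABP7 and FABP12 had at most 2 counts in any shACSL4 library and 0 in every shControl library, and FABP9 and PMP2 had 0 throughout.

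**Figure D2:**
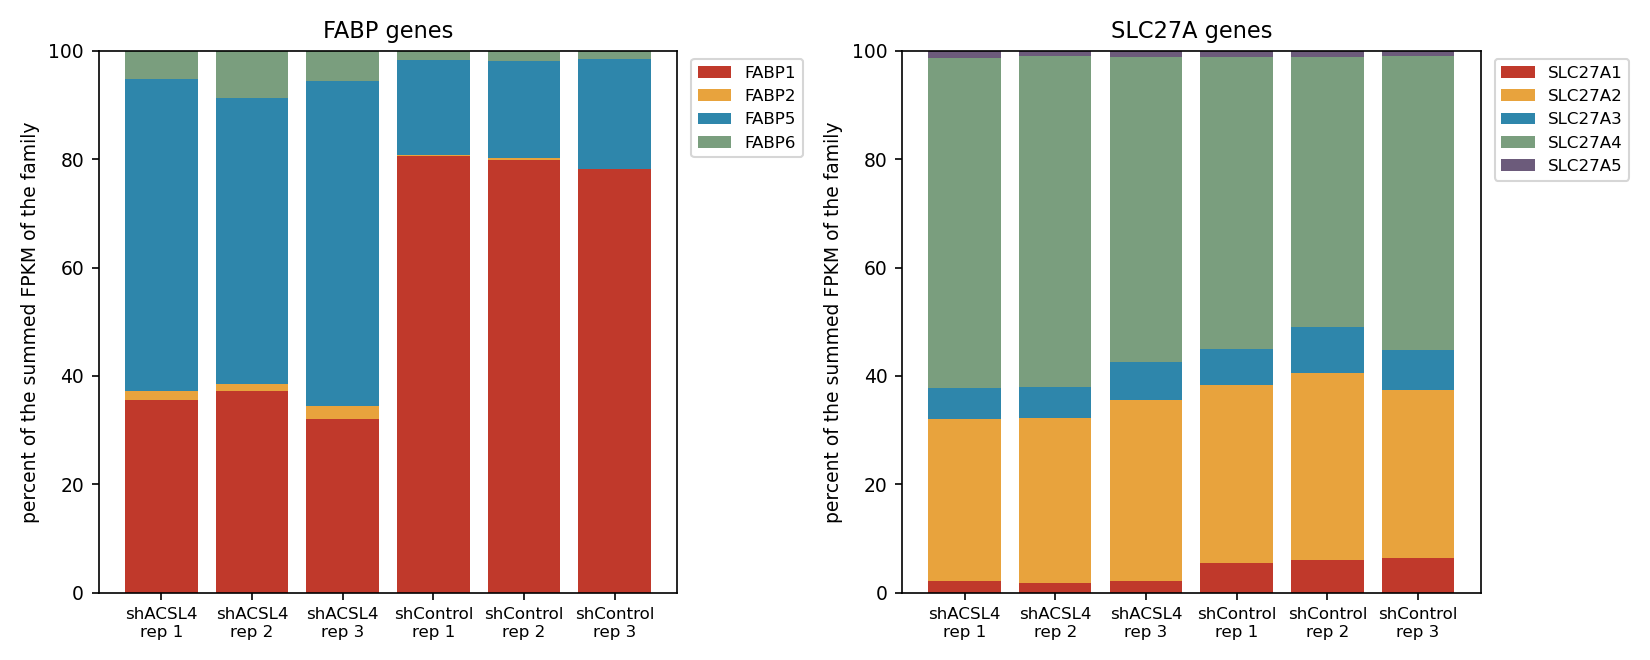
Share of each gene in the summed deposited FPKM of its family, 1 bar per library, with the 3 shACSL4 libraries left of the 3 shControl libraries; FABP genes on the left and SLC27A genes on the right. FABP1 takes 32.1% to 37.1% of the FABP sum in shACSL4 and 78.1% to 80.5% in shControl, while SLC27A4 is the largest part of the SLC27A sum in all 6 libraries.

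Levels of different genes were compared per length, first as the deposited FPKM. The 4 FABP genes summed to 57.0 ± 5.64 FPKM in shACSL4 and 204 ± 29.2 FPKM in shControl (SD, n = 3 each). FABP1 made up 34.9% ± 2.58 of that sum in shACSL4 and 79.5% ± 1.24 in shControl. FABP5 made up 52.8% to 59.9% in shACSL4 and 17.5% to 20.3% in shControl, so that the leading form of the family differed between the groups on this scale. Each of these values separated the groups completely, and an exact two-sided permutation test gave p = 0.1, the smallest that 3 libraries against 3 allow. Shares are parts of the same sum, so where FABP1 falls the FABP5 share rises, and these separations are not independent of each other. FABP5 itself was not called (log2 fold change -0.20). The shares depend on the length used. The deposited length of FABP1 is 2470 bases, while the principal of its 4 transcripts in GENCODE 29 is 555 bases long. How the deposited length was made up was not checked. Per kilobase of principal transcript FABP1 made up 50.2% ± 2.86 in shACSL4 and 87.8% ± 0.874 in shControl, and FABP1 and FABP5 overlapped in level in shACSL4 (85.0 to 93.6 and 66.2 to 91.9 CPM per kilobase).

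SLC27A1, or FATP1, is a transport protein with acyl-CoA synthetase activity, best known from muscle and fat, where insulin brings it to the cell surface. The gene lies on chromosome 19 at 17468769 to 17506168 (ENSG00000130304, plus strand). It had 7.38, 6.56 and 6.58 CPM in shACSL4 replicates 1, 2 and 3, against 20.8, 23.2 and 20.0 CPM in shControl replicates 1, 2 and 3. All shACSL4 libraries lay below all shControl libraries, and the spread within each group was small beside the gap. The log2 fold change was -1.64 (SE 0.13, 95% interval -1.92 to -1.37), leaving 32% of the shControl level, with an adjusted p of 3.9e-08 by edgeR. The adjacent tested gene TMEM221 was also called lower (-1.57, SE 0.16), whereas the running median of 51 genes around SLC27A1 was 0.17. A lincRNA on the opposite strand, AC010618.3, overlaps SLC27A1 and had 12 to 18 counts in shACSL4 and 16 to 24 in shControl, and was not called.

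SLC27A3, or FATP3, has acyl-CoA synthetase activity and a lesser known part in uptake, and lies on chromosome 1 at 153774354 to 153780157. It had 13.1, 13.3 and 13.7 CPM in shACSL4 replicates 1, 2 and 3, against 16.5, 21.3 and 15.3 CPM in shControl replicates 1, 2 and 3. The groups did not overlap, and shControl replicate 2 stood above the other shControl libraries. The log2 fold change was -0.41 (SE 0.14, 95% interval -0.70 to -0.12), with an adjusted p of 0.0205 by edgeR. The call was lost without shControl replicate 2 (-0.26, adjusted p = 0.114), and without shACSL4 replicate 1 or 2 (adjusted p = 0.0593 and 0.0559). The first 455 bases of SLC27A3 overlap INTS3 on the same strand. INTS3 was called higher (0.24, adjusted p = 0.0297 by edgeR), and how reads of the shared stretch were counted is not given in the sources used here.

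SLC27A4, or FATP4, is the main family member of the small intestine. It stood at 80.9, 80.6 and 62.8 CPM in shACSL4 replicates 1, 2 and 3, against 76.1, 71.7 and 63.2 CPM in shControl replicates 1, 2 and 3. Both groups had their lowest value in replicate 3, and the ranges overlapped. Its log2 fold change was 0.09 (95% interval -0.14 to 0.31, adjusted p = 0.52 by edgeR), an interval that leaves out changes as large as that of SLC27A1. The immediate neighbours COQ4 (0.72) and URM1 (0.39) were both called higher.

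SLC27A2, or FATP2, a very long-chain acyl-CoA synthetase of liver and kidney, stood at 35.9, 36.2 and 33.6 CPM in shACSL4 replicates 1, 2 and 3, against 41.8, 44.8 and 32.4 CPM in shControl replicates 1, 2 and 3. The ranges overlapped only through shControl replicate 3. The log2 fold change was -0.17 (95% interval -0.41 to 0.06, adjusted p = 0.222 by edgeR), and without shControl replicate 3 it was -0.31 and was called (adjusted p = 0.0245). It was -0.08 without shControl replicate 2 (adjusted p = 0.586) and -0.05 with library size alone.

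SLC27A5, which in liver joins bile acids to coenzyme A, had 75, 53 and 52 counts in shACSL4 replicates 1, 2 and 3, against 68, 63 and 45 counts in shControl replicates 1, 2 and 3. Its log2 fold change was 0.00 with a wide 95% interval of -0.51 to 0.52, so a change of that size was not detectable at this depth. It shares 1719 bases with ZNF446 on the opposite strand, which was called higher (1.06), and the effect of this overlap on the SLC27A5 counts was not tested. SLC27A6 had 0 counts in every library, which allows a level of up to 0.171 to 0.192 CPM in shACSL4 and up to 0.179 to 0.202 CPM in shControl.

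CD36, the scavenger receptor that takes up long-chain fatty acids in muscle, fat, macrophages and the upper small intestine, had 4, 3 and 9 counts in shACSL4 replicates 1, 2 and 3, against 3, 3 and 6 counts in shControl replicates 1, 2 and 3. Both groups ranged upward from 3 counts, the detection floor used here, and overlapped, and no difference was detectable at this depth.

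**Figure D3:**
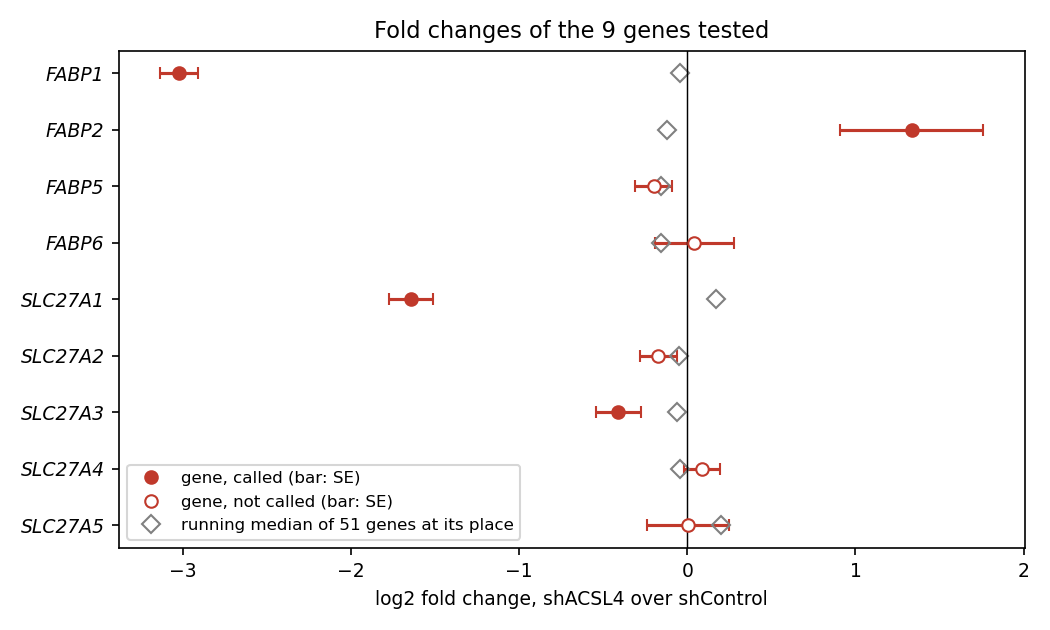
log2 fold change of shACSL4 over shControl for the 9 genes tested, with the SE as a bar, filled where called, and the running median of 51 tested genes at the gene's place on the chromosome as an open diamond. FABP1 (-3.02) and SLC27A1 (-1.64) lie far below their running medians of -0.04 and 0.17, and FABP2 (1.34) far above its own of -0.12, though the adjacent GTF2IP12 was also higher (1.47).

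On the deposited FPKM scale FABP1 had rank 3 in shACSL4 and rank 1 in shControl, FABP2 and its neighbours changed places, and CD36 was lowest in both groups. Per kilobase of principal transcript the order was the same in both groups except that FABP6 and SLC27A3 changed places, and these overlapped in range in shControl. The values that follow are on the deposited FPKM scale. In shACSL4 the order was FABP5 at 32.5 ± 5.21, SLC27A4 at 23.7 ± 3.31, FABP1 at 19.8 ± 0.894, SLC27A2 at 12.4 ± 0.517 and FABP6 at 3.64 ± 0.699 FPKM (SD, n = 3), and SLC27A4 and FABP1 overlapped in range. Below them came SLC27A3 at 2.40, FABP2 at 1.07, SLC27A1 at 0.816, SLC27A5 at 0.455 and CD36 at 0.0300 FPKM, and FABP2 and SLC27A1 overlapped. In shControl the order was FABP1 at 162 ± 25.1, FABP5 at 37.6 ± 3.37, SLC27A4 at 22.5 ± 2.24, SLC27A2 at 14.1 ± 2.38 and FABP6 at 3.57 ± 0.904 FPKM (SD, n = 3). Below them came SLC27A3 at 3.23, SLC27A1 at 2.57, SLC27A5 at 0.456, FABP2 at 0.424 and CD36 at 0.0234 FPKM. FABP6 overlapped with SLC27A3, SLC27A3 with SLC27A1, and SLC27A5 with FABP2.

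Within the SLC27A family the summed level was 39.7 ± 3.85 FPKM in shACSL4 and 42.8 ± 5.10 FPKM in shControl (SD, n = 3 each; exact two-sided permutation p = 0.5). SLC27A4 and SLC27A2 together carried most of it in both groups. SLC27A1 made up 2.06% ± 0.177 in shACSL4 and 6.04% ± 0.463 in shControl, with no overlap (exact permutation p = 0.1, the smallest possible). SLC27A4 made up 59.4% ± 2.73 in shACSL4 and 52.6% ± 2.40 in shControl, again with no overlap and the same p. The level of SLC27A4 itself was not called (log2 fold change 0.09), and shares of the same sum are not independent. Per kilobase of principal transcript SLC27A1 made up 3.94% ± 0.292 in shACSL4 and 10.9% ± 0.770 in shControl.

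The 5 protein coding genes whose pattern over the 6 libraries lay nearest to FABP1 were AKR1C3, NPTX1, FSCN1, ACSL4 and PTGER2. Likeness was the Euclidean distance of log2 CPM centred on the shControl mean, among 10923 genes averaging 50 counts or more, and it was 0.30 for AKR1C3, 0.36 for NPTX1, 0.40 for FSCN1, 0.45 for ACSL4 and 0.48 for PTGER2. Their log2 fold changes were -2.98, -3.01, -2.84, -2.85 and -3.12, in the same order. Reads of AKR1C3 may be split with near-identical AKR1C copies. With only 2 groups in the series, such a likeness is mostly one of the size of the difference between them.

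Genes around these proteins were grouped into lists that were chosen with results of these data known, so the counts describe the lists and are no independent evidence. They stand beside 47.2% called over all genes tested, 23.1% lower and 24% higher, and nothing particular to a list is read from a count near those shares. Of the 11 acyl-CoA synthetase genes tested 5 fell, ACSL4 itself among them, and 1 rose (median log2 fold change -0.22, beside 23.1% lower and 24% higher over all genes). The falls became 3 without shControl replicate 1 or shACSL4 replicate 2, with library size alone, without the filter and against a fold of 1.2, and the rises became 2 with library size alone and among genes averaging 50 counts or more. ACSF2 fell (-0.86, SE 0.10) and ACSS2, the cytosolic acetyl-CoA synthetase, rose (0.51, SE 0.08). Of 16 acyl-CoA binding and thioesterase genes 6 fell and none rose (median -0.25). They included the sterol carrier protein gene SCP2 (-0.55), ACBD5 (-0.35), which tethers peroxisomes to the endoplasmic reticulum, and DBI (-0.37), the acyl-CoA binding protein. The 6 falls became 3 without shACSL4 replicate 1 or 3 or shControl replicate 1, 4 without shACSL4 replicate 2 or shControl replicate 2, with DESeq2, among genes averaging 50 counts or more and relative to neighbouring genes, 2 with library size alone, where 1 gene rose, and 1 against a fold of 1.2.

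Among 16 tested genes for other uptake and sensing at the membrane and for transfer into organelles, 6 fell and 5 rose (median -0.07; 3 rose against a fold of 1.2). CPT1A, the gate of mitochondrial fatty acid oxidation, stood at 183, 170 and 134 CPM in shACSL4 replicates 1, 2 and 3, against 356, 374 and 304 CPM in shControl replicates 1, 2 and 3 (-1.09, SE 0.11). The lipoprotein receptor gene VLDLR fell (-1.61, SE 0.20), and FFAR4, a receptor for long-chain fatty acids, rose (1.17, SE 0.14). With library size alone the list's median was 0.05.

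In the PPAR target list, which holds genes induced by fatty acid activated nuclear receptors, 8 of 20 tested genes fell and 1 rose (median -0.27). Over all genes tested 47.2% were called, a share near that of the list, but 23.1% were lower and 24% higher. The list was chosen with results of these data known. The lipid droplet coat gene PLIN2 stood at 59.0 ± 5.21 CPM in shACSL4 and 174 ± 6.37 CPM in shControl (-1.56, SE 0.09; SD, n = 3 each). ANGPTL4, an inhibitor of lipoprotein lipase, had 10, 20 and 14 counts in shACSL4 replicates 1, 2 and 3, against 197, 170 and 158 counts in shControl replicates 1, 2 and 3 (-3.61, SE 0.23). TXNIP fell as well (-1.43, SE 0.09), while 11 others did not pass the test. The 1 rise became 4 with library size alone and 0 against a fold of 1.2 and without shACSL4 replicate 1 or shControl replicate 1.

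Of 15 tested genes of triglyceride resynthesis and chylomicron assembly, 4 fell and 1 rose (median 0.03). The rises became 2 without shControl replicate 2 or 3 and among genes averaging 50 counts or more, and 3 with library size alone. GPAT3 (-1.24, SE 0.11), LPIN2 (-0.64) and AGPAT2 (-0.49), which build the glycerolipid backbone, fell, and the chylomicron genes APOB and MTTP had too few counts to be tested. In the bile acid list 4 of 8 tested genes fell and 2 rose (median -0.48). Without any single library 1 rose, and 1 also rose with DESeq2, without the filter, with the replicate block, against a fold of 1.2, relative to neighbouring genes and among genes averaging 50 counts or more. The falls became 2 without shControl replicate 3, with library size alone and against a fold of 1.2, and the median was -0.04 without shControl replicate 1. The efflux pumps ABCC3 (-0.98, SE 0.09) and ABCC2 (-0.33) fell and SLCO2B1 rose (0.65, SE 0.11). The ileal bile acid uptake gene SLC10A2 had 0 counts in all libraries.

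Of 23 tested nuclear receptors and intestinal factors, 7 rose and 6 fell (median 0.03), near the 24% higher and 23.1% lower of all genes. PPARA (-0.12, adjusted p = 0.38 by edgeR) and PPARD (0.07, adjusted p = 0.558) were not called, and PPARG fell (-0.40, SE 0.08). HNF4A, an enterocyte and liver regulator, rose (0.71, SE 0.10), at 216 ± 27.4 CPM in shACSL4 and 132 ± 7.48 CPM in shControl (SD, n = 3 each). NR1H4, the bile acid receptor, had 10, 0 and 6 counts in shACSL4 replicates 1, 2 and 3, against 111, 91 and 104 counts in shControl replicates 1, 2 and 3 (-4.26, SE 0.43). NR1H3, the oxysterol receptor, fell (-0.61, SE 0.10). The 7 rises became 4 without shControl replicate 1 or 3, 3 against a fold of 1.2, and 9 with library size alone. Of the retinoid binding relatives of the FABP family only RBP5 had enough counts to be tested, and it rose (0.69, SE 0.17).

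**Figure D4:**
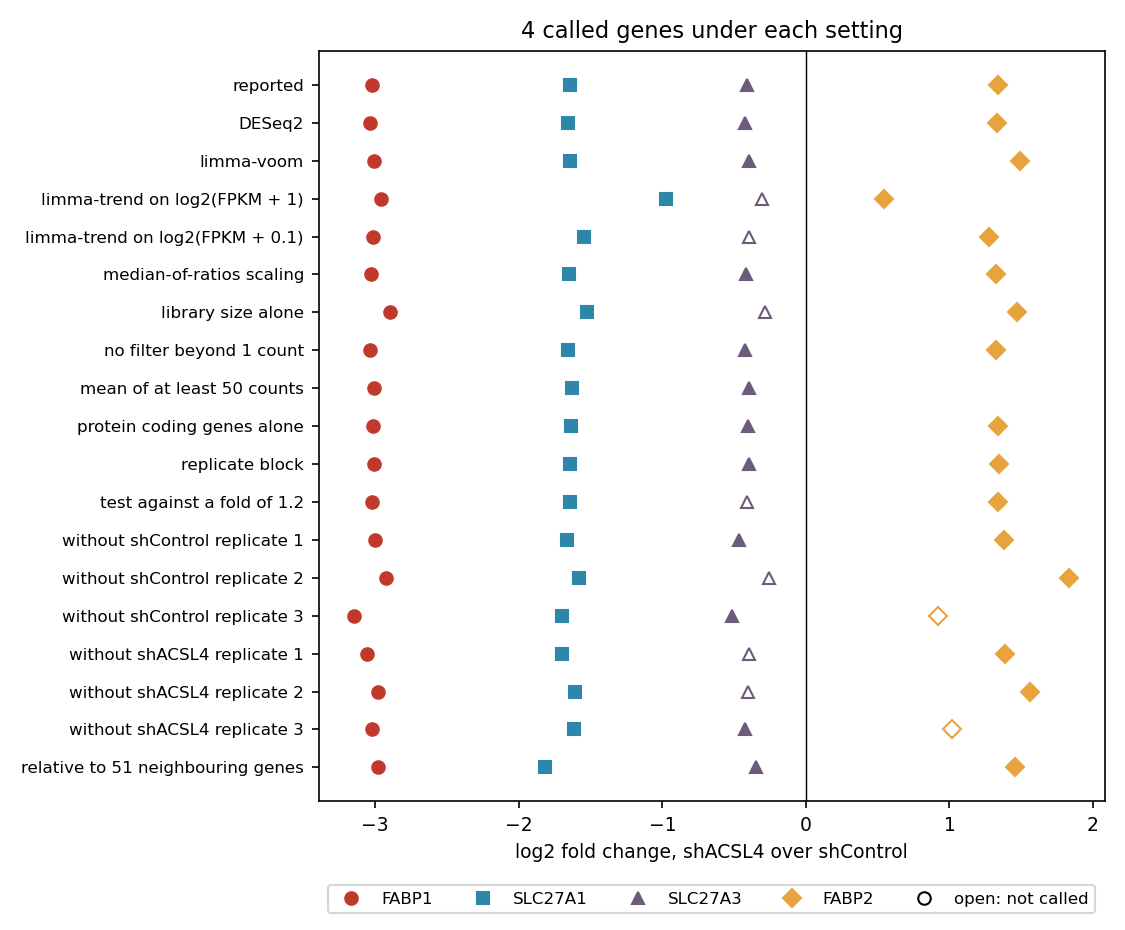
log2 fold change of shACSL4 over shControl for the 4 called genes, 1 row for the reported fit and 1 for each other way of processing, with open symbols where the gene was not called. FABP1 and SLC27A1 are filled throughout, FABP2 is open where replicate 3 of either group is left out, and SLC27A3 is open in 7 rows.

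**Figure D5:**
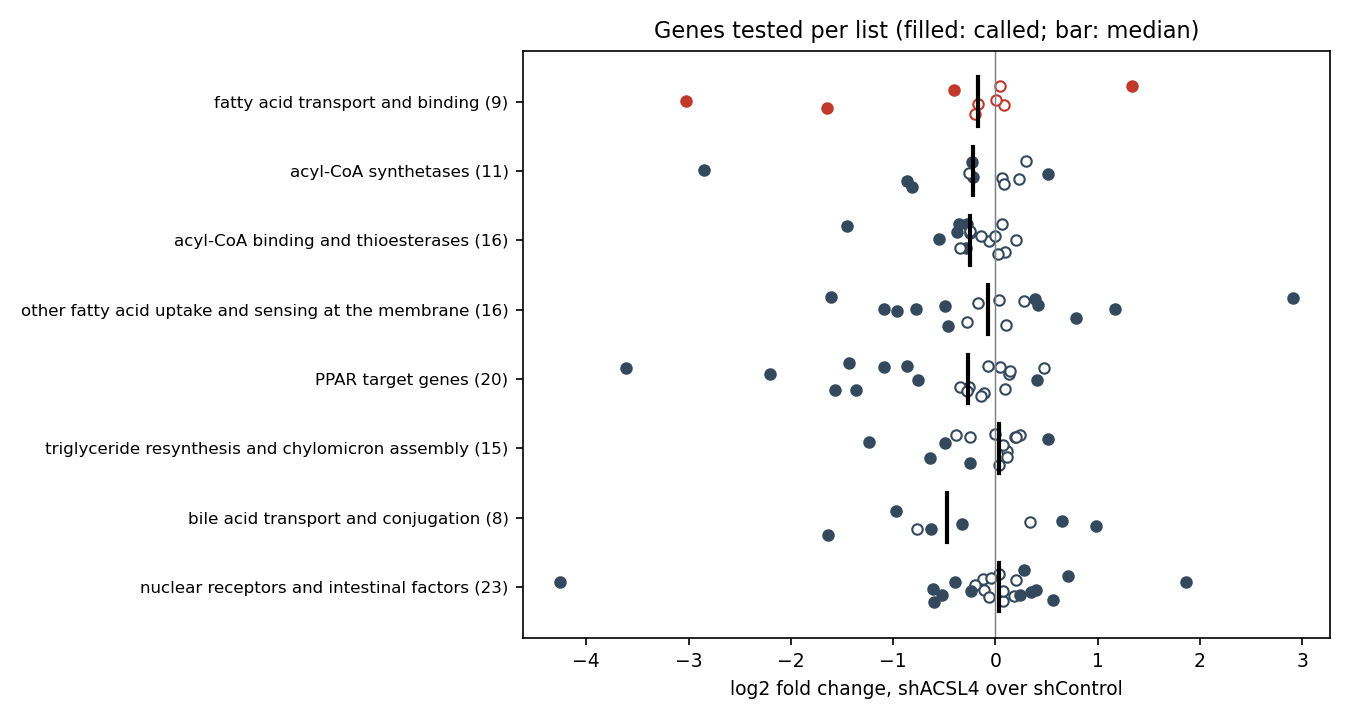
log2 fold change of shACSL4 over shControl for every tested gene of the fatty acid transport and binding group and of 7 related lists, filled where called, with the median as a bar and the number tested in brackets. FABP1 (-3.02), ACSL4 (-2.85), ANGPTL4 (-3.61) and NR1H4 (-4.26) lie farthest to the left.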

How the data were processed

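Libraries were made by an NEB method from Trizol RNA depleted of ribosomal RNA, per the labels' protocols. CASAVA, HISAT2 and GRCh38 are named in the submitters' processing notes; the counter and strand setting were not given in the sources used here, and overlapping genes cannot be told apart. The authors deposited raw counts per gene, FPKM per library, group mean signal, log2 fold changes and p-values, per the file headers; the last 3 were not used for any result. Control columns carry the prefix NC and were taken as shControl by elimination and by number.

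Counts were filtered by filterByExpr, scaled by TMM and tested by the quasi-likelihood method of edgeR 4.0.16 (R 4.3.3, limma 3.58.1) with no covariate. P-values were Benjamini-Hochberg adjusted over all 15694 genes tested, and a gene was called at an adjusted p under 0.05. Intervals are 95% intervals from the fitted SE. Exact permutation tests used scipy 1.17.1. Related genes were named by a rule: in each list at most 3 called genes, those of smallest adjusted p, plus PPARA, PPARD, PPARG, HNF4A and NR1H4; TMEM221, AC010618.3, FABP5P7, APOB, MTTP, SLC10A2, INTS3, COQ4, URM1, ZNF446, GTF2IP12, C4orf3, KRCC1 and THNSL2 were chosen after their values were seen. The members and lists were chosen with earlier results of these data known. All 192 list and member symbols were matched by name. FPKM in the deposited table uses the deposited gene length. Reads were counted without molecular identifiers, so floors cover counting error only.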

Additional observations from a re-analysis of the deposited data

How the results depend on the processing

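Alternatives were DESeq2 (1.42.0), limma-voom, limma-trend on log2(FPKM + 1) and log2(FPKM + 0.1), library size alone, median-of-ratios scaling, protein coding genes alone, a minimum of 1 count, genes averaging 50 counts or more, a replicate block, each library left out in turn, a test against a fold of 1.2, and folds relative to the running median of 51 genes. FABP1 (-3.15 to -2.90), SLC27A1 (-1.81 to -0.97) and ACSL4 kept direction and call in all 18. The -0.97 of SLC27A1 came from log2(FPKM + 1), a scale that understates changes of scarce genes. The other settings gave -1.81 to -1.52 for SLC27A1. FABP2 (0.54 to 1.83) kept its call in 15 of 17, and SLC27A3 in 11 of 18; the SLC27A3 call was also lost with library size alone (adjusted p = 0.0954), limma-trend (0.0621 and 0.0609) and a fold of 1.2 (0.139). The 1 rise among the 10 genes became 0 among genes averaging 50 counts or more, which removes FABP2, and ranged from 0 to 1 without single libraries; the 3 falls ranged from 2 to 4. Against a fold of 1.2, a stricter null, 2441 genes rose and 2209 fell, against 3769 and 3631. With library size alone 65.6% of calls were higher, against 50.9%, and the median log2 fold change of all genes was 0.13. In that setting 28 genes of the related lists rose, against 18. The TMM factors, which library size alone leaves out, were 0.938 to 0.986 in shControl and 1.02 to 1.08 in shACSL4. Why these factors differed between the groups was not tested.

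With the replicate block 3769 genes rose and 3645 fell, 1 and 3 of the 10 genes, and 17 and 36 of the related lists; the block changed no call among the 10. Deviations of same-numbered libraries correlated at 0.06, -0.0013 and 0.0075, and those of libraries with different numbers at -0.087 to 0.070. A pairing by number was not seen, though so few libraries cannot exclude one. Per kilobase of principal transcript, a scale chosen after seeing the data, 4 of the 10 genes kept their rank in shACSL4 and 8 in shControl, since the lengths differ. CD36, FABP2, FABP6 and SLC27A5 had few counts; the shares of counting error and library spread in their errors were not tested.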
